A study of Mus musculus with 15 samples.

Results

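The 10 genes described here encode enzymes that make serine, carry its carbon through the mitochondrial folate pathway and make proline. They were taken by their symbols from the first column of 3 deposited tables of mouse kidney RNA-seq, and all 10 had a row in each table, among 23393 genes. Shmt2, Mthfd2, Mthfd1l and Aldh1l2 act on folate in mitochondria, Shmt1 is the cytosolic counterpart of Shmt2, Phgdh, Psat1 and Psph make serine from an intermediate of glycolysis, and Aldh18a1 and Pycr1 make proline from glutamate.

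Serine hydroxymethyltransferases move a carbon of serine onto tetrahydrofolate and leave glycine, and the mitochondrial folate enzymes then release that carbon as formate for the synthesis of purines and thymidylate, or oxidise it to carbon dioxide. The reactions run in either direction, and the kidney is known both for cleaving glycine and for releasing serine into the blood. Most genes of this group are textbook targets of ATF4, the transcription factor of the integrated stress response, and are known to rise in mouse models of mitochondrial disease. ERRγ, encoded by Esrrg, is a nuclear receptor without a known natural ligand that drives genes of oxidative metabolism.

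All mice were C57BL/6 and carried floxed Esrrg alleles on both chromosomes. Knockout mice (ERRg fl/fl;Sim1-Cre) carried the Sim1-Cre transgene in addition, and controls (ERRg fl/fl) were littermates without Cre. The kidney cells in which that Cre was active are not stated in the labels. Polyadenylated kidney RNA gave 15 libraries: 3 knockout and 3 control males at 3 months, 2 knockout and 2 control females at 3 weeks, and 3 knockout and 2 control males at 3 weeks. The source names of the 3 libraries of 3-month knockout mice say female, whereas their titles and sex tags say male. In that table the female-specific RNA Xist had a mean of 11.9 normalized counts and the Y-linked gene Ddx3y 1477, against means of 23848 and 0.83 in the 3-week females.

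The deposited values are the authors' own comparisons of knockout with control kidneys, 1 table for 3-month males, 1 for 3-week females and 1 for 3-week males. Each gives a gene's mean of normalized counts over all libraries, the log2 of the fold change, its standard error (SE), and a p-value adjusted over the genes tested. Fractional steps of the lowest means fitted 5 libraries at 3 months and 4 in each 3-week table, so fewer libraries than the labels list entered 2 of the 3 tables. Their genotypes were named only by the sign of the fold change at each step, with the direction of the ratio assumed below. So named, they were 2 knockout and 3 control libraries at 3 months, and 2 knockout and 2 control libraries in each 3-week table. The mean total of normalized counts per library was, in units of 1e6 counts, 18.8 at 3 months, 33.9 in 3-week females and 47.5 in 3-week males. The headers do not say which genotype is on top of the ratio, and a positive value is read here as higher in knockout kidneys. Esrrg itself did not check this reading: the authors' deposited tables gave it log2 fold changes of -0.87 ± 0.57 (SE) with no p-value at 3 months, 1.04 ± 0.17 in 3-week females and 0.82 ± 0.20 in 3-week males. Reads from exons that are not deleted still count towards it, so it cannot decide the direction. If the ratio were control over knockout, every "higher" given here would be a "lower" and the reverse. The names knockout and control would then also change places for the library numbers, the derived levels and the Pycr1 reads. Scaling to total counts in place of the authors' size factors would raise every log2 fold change by 0.49 at 3 months, by 0.15 in 3-week females and by 0.18 in 3-week males, and the calls of members that this ends are named beside them.

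In the knockout kidneys of all 3 tables, RNA of both serine hydroxymethyltransferases, Shmt2 and Shmt1, was lower, and RNA of the next mitochondrial folate enzyme, Mthfd2, and of the first proline enzyme, Aldh18a1, was higher. These 4 members were called in every table, and the other 6 in 2 tables, in 1 or in none. Of those 6, Mthfd1l, Aldh1l2, Psat1 and Pycr1 each had no adjusted p in 1 table and so could not be called in all 3. Calls are at an adjusted p under 0.05 in the authors' deposited tables. In the authors' deposited table of 3-month males 4 members rose and 3 fell among 8 tested, where 29.8% of all tested genes rose and 27.8% fell. Among 9 members tested in 3-week females 3 rose and 2 fell, where 8.29% of all tested genes rose and 10.4% fell. Of 9 members tested in 3-week males 3 rose and 2 fell, where 8.81% of all tested genes rose and 8.52% fell. With 57.5% of all tested genes called in either direction at 3 months, 18.7% in 3-week females and 17.3% in 3-week males, a single call at 3 months is a common event. Among the 11928 genes tested in all 3 tables, 522 (4.38%) rose and 448 (3.76%) fell in every one. In whole kidneys, a change in the share of a cell type and a change of RNA per cell cannot be told apart.

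**Figure D1:**
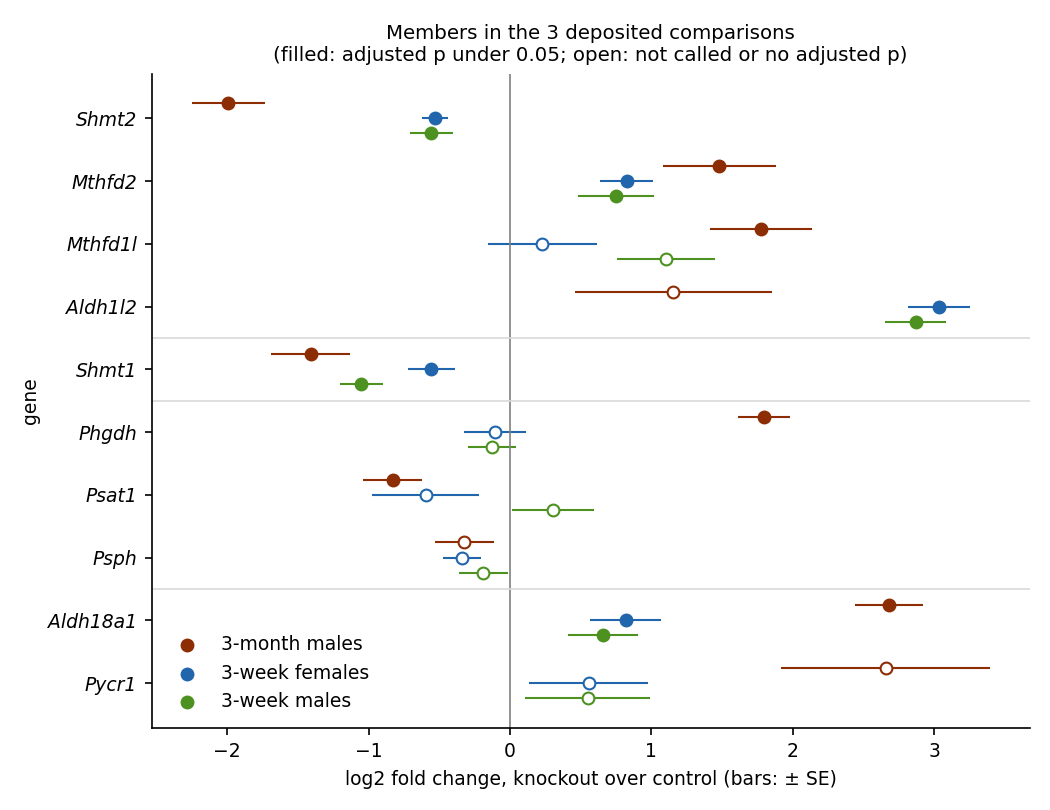
Log2 fold change of each member, knockout over control, in the authors' deposited tables of 3-month males, 3-week females and 3-week males, with bars of 1 SE and filled points for adjusted p under 0.05. Mthfd2 and Aldh18a1 lie right of 0 and Shmt2 and Shmt1 left of it in all 3 tables, and with scaling to total counts Psph at 3 months and Phgdh in both 3-week tables would change sign.

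Upstream sequence is shown for Shmt2, which fell in all 3 tables, for Mthfd2 and Aldh18a1, which rose in all 3, and for Pycr1, the member whose reads could be recovered library by library. The bases come from RefSeq on GRCm38.p6, are written 5′ to 3′ on the gene's own strand and end where an annotated exon at the RefSeq start site begins. Capitals mark the match of a searched motif. Shmt2 is shown from chr10:127522445-127522694, Mthfd2 from chr6:83317607-83317854, Aldh18a1 from chr19:40588464-40588713 and Pycr1 from chr11:120643770-120643998, all on the minus strand.
Shmt2: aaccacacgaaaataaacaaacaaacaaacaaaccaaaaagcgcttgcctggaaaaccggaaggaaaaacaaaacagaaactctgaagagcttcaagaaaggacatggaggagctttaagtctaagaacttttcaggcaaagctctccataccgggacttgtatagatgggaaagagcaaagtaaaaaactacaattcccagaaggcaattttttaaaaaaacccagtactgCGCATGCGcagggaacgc
Mthfd2: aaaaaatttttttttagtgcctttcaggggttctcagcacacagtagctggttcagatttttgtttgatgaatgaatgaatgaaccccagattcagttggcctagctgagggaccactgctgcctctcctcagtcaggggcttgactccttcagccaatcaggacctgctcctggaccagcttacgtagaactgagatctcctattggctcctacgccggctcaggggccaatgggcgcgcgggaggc
Aldh18a1: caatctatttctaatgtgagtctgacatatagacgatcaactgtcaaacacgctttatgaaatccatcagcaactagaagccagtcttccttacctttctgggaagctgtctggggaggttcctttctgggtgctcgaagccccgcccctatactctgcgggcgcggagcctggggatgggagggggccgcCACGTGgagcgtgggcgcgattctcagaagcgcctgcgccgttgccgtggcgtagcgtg
Pycr1: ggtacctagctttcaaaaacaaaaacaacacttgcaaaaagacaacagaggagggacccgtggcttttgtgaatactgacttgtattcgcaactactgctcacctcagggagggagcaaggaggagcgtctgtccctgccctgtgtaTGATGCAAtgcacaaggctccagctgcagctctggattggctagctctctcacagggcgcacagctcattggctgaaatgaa

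Both strands of the 250 bases before each start site were searched for 5 motifs in the 9 members with a RefSeq window, which gave 10 windows, and in all 32851 windows of the same length. The C/EBP-ATF composite element TGATGNAA, a type of site that ATF4 binds with a C/EBP partner, was in the Pycr1 window at position -103, counted from the start site, and in 3.45% of all windows. The E-box CACGTG was in the Aldh18a1 window at -59 and in 6.02% of all windows. The core CGCATGCG of the NRF1 motif, named for a factor of genes for mitochondrial proteins, was in the Shmt2 window at -18 and in 1.55% of all windows. The cyclic-AMP response element TGACGTCA and the ERR half-site AAGGTCA were in no member window, and in 1.55% and 4.08% of all windows. None of these motifs overlapped another in a member window, and the Mthfd2 window held none of them.

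Shmt2, which makes glycine and a folate-bound carbon from serine in mitochondria, was the most abundant member per kilobase of exon in every table. The authors' deposited tables gave it log2 fold changes of -1.99 ± 0.26 (SE, adjusted p = 1.55e-13) in 3-month males, -0.53 ± 0.09 (adjusted p = 1.80e-07) in 3-week females and -0.56 ± 0.15 (adjusted p = 0.00330) in 3-week males. Levels per genotype were derived from the deposited means and fold changes, with the moderation of fold changes undone and the library numbers given above, and they carry no error of their own. They are given as length-scaled counts, that is normalized counts per kilobase of exon and per 1e6 counts of the table. The derived Shmt2 level was 24.1 length-scaled counts in knockout kidneys and 97.9 in control kidneys at 3 months. It was 38.5 in knockout and 56.0 in control kidneys of 3-week females, and 39.9 in knockout and 59.5 in control kidneys of 3-week males. Shmt2 thus fell in every table, and with scaling to total counts it was no longer called in 3-week males (log2 fold change -0.38, adjusted p = 0.0663).

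Mthfd2 oxidises the carbon that Shmt2 loads onto folate and is low in most adult tissues. Its log2 fold changes in the authors' deposited tables were 1.48 ± 0.40 (SE, adjusted p = 0.000570) at 3 months, 0.82 ± 0.19 (adjusted p = 0.000171) in 3-week females and 0.75 ± 0.27 (adjusted p = 0.0330) in 3-week males. Derived levels of Mthfd2 were 2.37 length-scaled counts in knockout and 0.82 in control kidneys at 3 months, 2.62 in knockout and 1.43 in control 3-week females, and 2.78 in knockout and 1.55 in control 3-week males. The gene rose in all 3 tables while its level stayed an order of magnitude under that of Shmt2. With the median of genes of like mean count subtracted, the call in 3-week males was lost (0.66, adjusted p = 0.0786). The related gene Mthfd2l, which is no member, was not called in any of the authors' deposited tables (0.58 ± 0.28 at 3 months, 0.26 ± 0.32 in 3-week females and 0.51 ± 0.24 in 3-week males).

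Mthfd1l releases the carbon as formate, the last step of the mitochondrial branch. It rose at 3 months, by 1.77 ± 0.36 on the log2 scale (SE, adjusted p = 3.93e-06, authors' deposited table), and its derived level there was 2.12 length-scaled counts in knockout and 0.60 in control kidneys. In 3-week females the authors' deposited table gave 0.23 ± 0.38 (adjusted p = 0.741). In 3-week males it gave 1.11 ± 0.35 and no p-value, because the gene has the status Outlier. With all genes that have a fold change tested, Mthfd1l in 3-week males reached an adjusted p of 0.0146.

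Aldh1l2 oxidises formyl-folate in mitochondria to carbon dioxide and yields NADPH. It had the largest fold changes of the members in both 3-week tables. The authors' deposited tables gave log2 fold changes of 3.03 ± 0.22 (SE, adjusted p = 4.44e-40) in 3-week females and 2.87 ± 0.21 (adjusted p = 4.17e-38) in 3-week males. Derived levels were 4.13 length-scaled counts in knockout and 0.43 in control kidneys of 3-week females, and 3.90 in knockout and 0.47 in control kidneys of 3-week males. At 3 months the authors' deposited table gave 1.16 ± 0.70 with the status Outlier and no p-value, from derived levels of 1.49 in knockout and 0.60 in control kidneys. Genes called in all 3 tables were ranked by their Euclidean distance from Aldh1l2 over the 3 fold changes. Symbols of predicted genes and clones were left out of the ranking, and 1001 genes were called in all 3 tables before that. Nearest were Serpina1b, a protease inhibitor, at a distance of 0.18, then Cxcl10, an interferon-induced chemokine, at 1.39, and Fam221a at 1.78. The 3-month value of Aldh1l2 in these distances, itself not called, has an SE of 0.70, which is larger than the distance to Serpina1b.

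Shmt1, the cytosolic hydroxymethyltransferase, had log2 fold changes of -1.41 ± 0.28 (SE, adjusted p = 1.97e-06) at 3 months, -0.56 ± 0.17 (adjusted p = 0.00754) in 3-week females and -1.05 ± 0.15 (adjusted p = 2.89e-10) in 3-week males in the authors' deposited tables. Its derived level was 7.96 length-scaled counts in knockout and 21.5 in control kidneys at 3 months, 24.0 in knockout and 35.9 in control 3-week females, and 17.6 in knockout and 37.4 in control 3-week males. With scaling to total counts, the call in 3-week females was lost (-0.41, adjusted p = 0.0593). The values of 2 further cytosolic enzymes are given here as a choice made after they were seen. Aldh1l1, the cytosolic relative of Aldh1l2, had -2.37 ± 0.36 with no p-value at 3 months, and it fell in both 3-week tables of the authors' deposited values (-1.02 ± 0.22 in females and -0.87 ± 0.18 in males). Mthfd1, the cytosolic enzyme that covers the steps of Mthfd2 and Mthfd1l, had -1.84 ± 0.32 with no p-value at 3 months and likewise fell at 3 weeks in the authors' deposited tables (-0.53 ± 0.09 in females and -0.79 ± 0.14 in males).

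**Figure D2:**
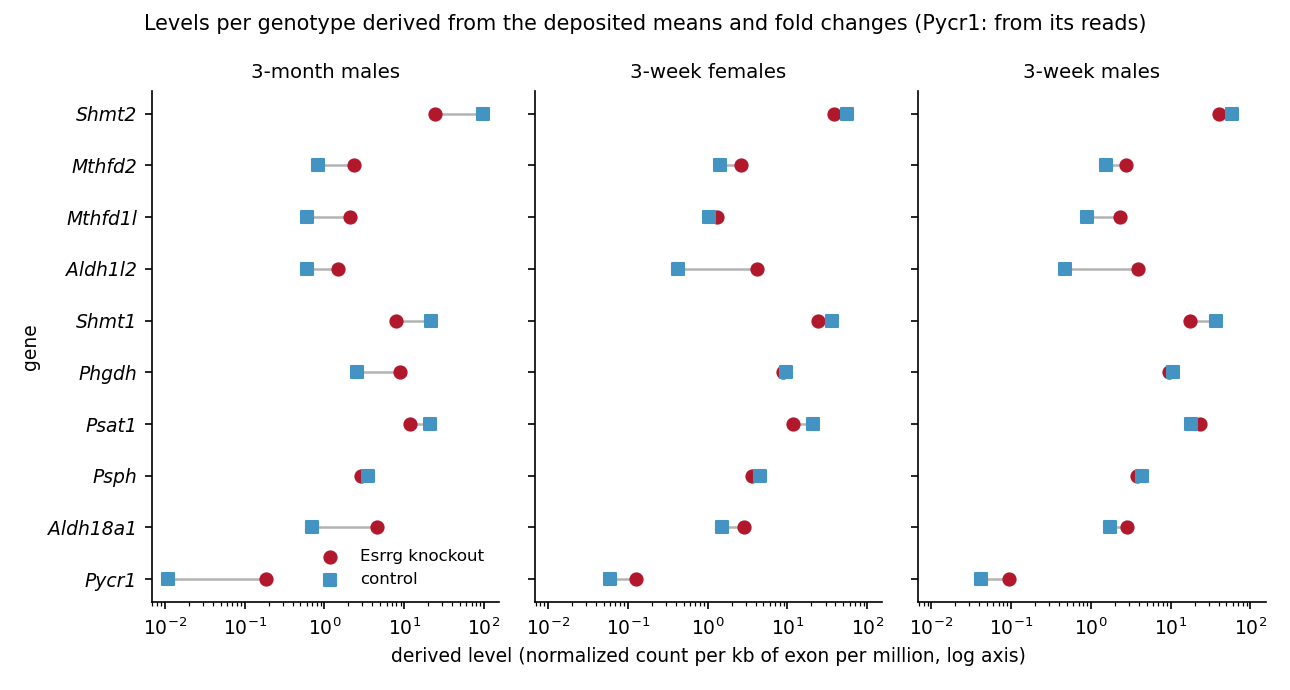
Derived level of each member in knockout (circles) and control kidneys (squares), in normalized counts per kilobase of exon and per 1e6 counts on a log axis, for 3-month males, 3-week females and 3-week males. Shmt2 is highest and Pycr1 lowest in every panel, and at 3 weeks Aldh1l2 is about 4 in knockout kidneys, against under 1 in controls.

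The 3 enzymes of serine synthesis did not move together. Phgdh, the first and committed enzyme, rose at 3 months by 1.80 ± 0.18 on the log2 scale (SE, adjusted p = 2.91e-21, authors' deposited table), with derived levels of 8.90 length-scaled counts in knockout and 2.54 in control kidneys. At 3 weeks the authors' deposited tables gave Phgdh -0.11 ± 0.22 (adjusted p = 0.796) in females and -0.13 ± 0.17 (adjusted p = 0.711) in males, and both signs turned with scaling to total counts. Derived Phgdh levels at 3 weeks were 8.77 in knockout and 9.51 in control females, and 9.67 in knockout and 10.6 in control males.

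Psat1, the aminotransferase of the next step, fell at 3 months (log2 fold change -0.83 ± 0.21, SE, adjusted p = 0.000218, in the authors' deposited table), a call that was lost with scaling to total counts (-0.33, adjusted p = 0.148). Its derived level at 3 months was 11.8 length-scaled counts in knockout and 21.0 in control kidneys. The authors' deposited tables gave Psat1 -0.60 ± 0.38 with the status Outlier and no p-value in 3-week females and 0.30 ± 0.29 (adjusted p = 0.560) in 3-week males. Psph, the phosphatase of the last step, was not called in any table: the authors' deposited values were -0.32 ± 0.21 (adjusted p = 0.171) at 3 months, -0.34 ± 0.14 (adjusted p = 0.0632) in 3-week females and -0.19 ± 0.18 (adjusted p = 0.548) in 3-week males. The 3-month sign of Psph turned with scaling to total counts (0.17).

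Of the 2 proline synthesis genes, Aldh18a1 rose in every table and Pycr1 had positive values without a call. Aldh18a1, which activates and reduces glutamate as the first step, rose in all 3 of the authors' deposited tables, by 2.68 ± 0.24 (SE, adjusted p = 8.02e-27) at 3 months, 0.82 ± 0.25 (adjusted p = 0.00949) in 3-week females and 0.66 ± 0.25 (adjusted p = 0.0486) in 3-week males on the log2 scale. Its derived level was 4.58 length-scaled counts in knockout and 0.70 in control kidneys at 3 months, 2.86 in knockout and 1.53 in control 3-week females, and 2.87 in knockout and 1.74 in control 3-week males. The call in 3-week males lay just inside the threshold: its adjusted p was 0.0876 with the median of genes of like mean count subtracted and 0.0582 with all genes that have a fold change tested.

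Pycr1, which makes proline in the last step, was the scarcest member, and its mean was low enough that the reads of every library could be recovered as whole numbers. At 3 months the 2 knockout libraries held 11 and 22 reads of Pycr1 (8.0 and 19.7 normalized counts), and the 3 control libraries held 0, 1 and 1 (0.0, 1.2 and 1.2 normalized counts). In 3-week females the knockout libraries held 22 and 11 reads (16.1 and 17.4 normalized counts), and the controls held 5 and 12 (4.6 and 11.2). In 3-week males the knockout libraries held 13 and 23 reads (10.8 and 24.2 normalized counts), and the controls held 8 and 7 (7.4 and 8.4). Knockout and control libraries did not overlap in normalized counts in any table, but that was common among the genes checked. These were the first 300 genes, in each table's own order, with a mean between 5 and 12 and a p-value. They are not a random sample of such genes. Among those with reads recovered in the same way, every knockout library lay above every control library for 51.7% of 298 at 3 months. The share was 29.7% of 300 in 3-week females and 35.7% of 300 in 3-week males. The Pycr1 means at 3 weeks, 12.3 in females and 12.7 in males, lie just above that range. The ratio of reads per size factor, knockout over control, was 17.3 at 3 months (95% exact conditional interval 4.44 to 149, counting error only), 2.1 in 3-week females (1.14 to 4.02) and 2.13 in 3-week males (1.14 to 4.18). These intervals leave out the spread between kidneys. The authors' deposited tables gave Pycr1 a log2 fold change of 2.66 ± 0.74 (SE) at 3 months with no adjusted p, since its mean of 6.03 is under the minimum of 10 (unadjusted p = 0.000316), 0.56 ± 0.42 (adjusted p = 0.395) in 3-week females and 0.55 ± 0.44 (adjusted p = 0.468) in 3-week males.

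**Figure D3:**
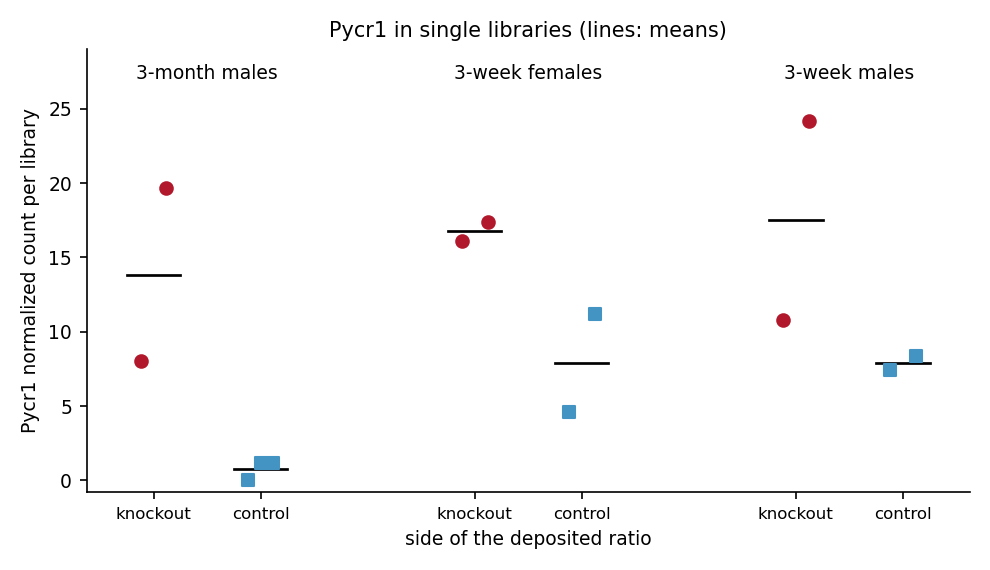
Pycr1 normalized count of each library that entered the 3 tables, knockout (circles) left of control (squares), with lines at the means. Knockout libraries lie between 8.0 and 24.2 normalized counts and control libraries between 0.0 and 11.2.

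The knockout effect on 4 members differed between the ages in males. The difference of the 2 deposited log2 fold changes was tested against their combined SE over 15912 genes with a p-value at both ages, of which 22% were called after Benjamini-Hochberg adjustment. For Aldh18a1 the log2 fold change at 3 months exceeded that at 3 weeks by 2.02 (95% interval 1.34 to 2.71, adjusted p = 2.63e-07). For Phgdh, which was not called at 3 weeks, the excess was 1.92 (1.43 to 2.42, adjusted p = 3.30e-12). The difference, 3 months minus 3 weeks, was -1.44 for Shmt2 (-2.03 to -0.85, adjusted p = 3.87e-05) and -1.13 for Psat1 (-1.83 to -0.43, adjusted p = 0.0105). The Psat1 difference was no longer called with scaling to total counts (adjusted p = 0.0695). The deposited fold changes appear to be moderated towards 0 more strongly at 3 weeks than at 3 months. With that moderation undone, all 4 differences stayed called. They were then 2.00 for Aldh18a1 (adjusted p = 2.30e-06), 1.94 for Phgdh (adjusted p = 9.23e-12), -1.45 for Shmt2 (adjusted p = 5.80e-05) and -1.18 for Psat1 (adjusted p = 0.0177). Mthfd2 (0.73, interval -0.21 to 1.67, adjusted p = 0.296), Shmt1 (-0.36, -0.98 to 0.27, adjusted p = 0.467) and Psph (-0.13, -0.66 to 0.40, adjusted p = 0.781) were not called. Pycr1 had a difference of 2.11 (0.43 to 3.79, adjusted p = 0.0601), which was called with scaling to total counts (adjusted p = 0.0208) and not with the moderation of fold changes undone (adjusted p = 0.269). Aldh1l2 and Mthfd1l had no p-value at 1 of the ages. With all genes that have a fold change tested, Aldh1l2 had a difference of -1.71 (adjusted p = 0.0685), which was not called.

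**Figure D4:**
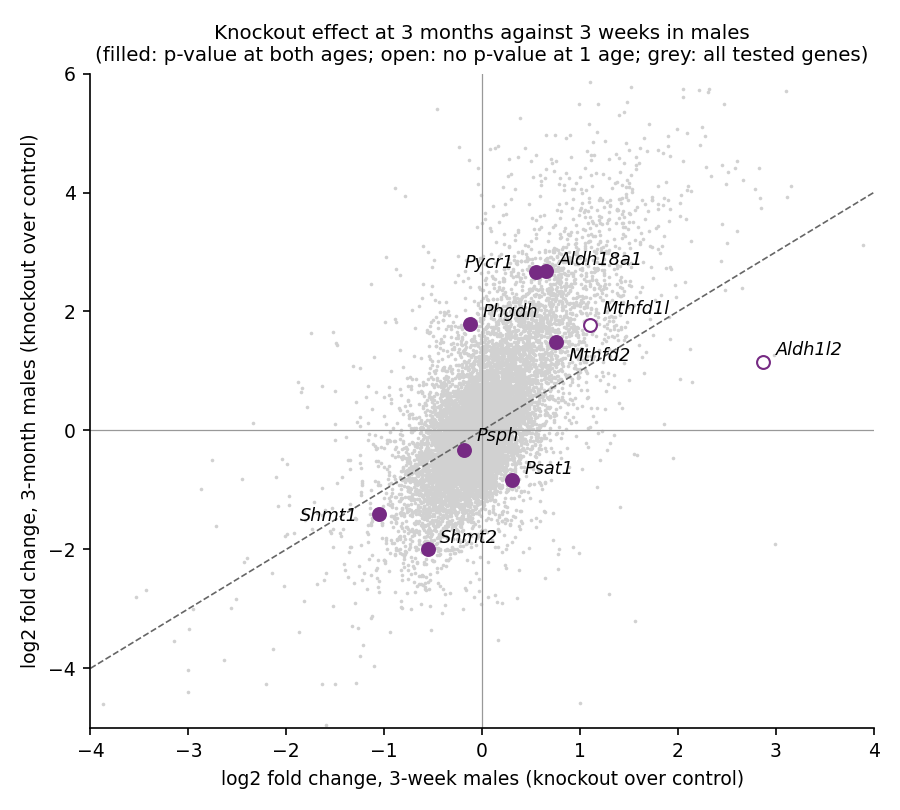
Log2 fold change, knockout over control, in 3-month males against that in 3-week males from the authors' deposited tables, members labelled, with 12355 genes tested at both ages in grey and a dashed line of equal change; 20 grey points lie outside the axes. Aldh18a1 and Phgdh lie above the line and Shmt2 and Psat1 below it, and Aldh1l2, drawn open for want of a p-value at 3 months, lies below it as well.

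Between the sexes at 3 weeks, none of the 8 members with a p-value in both tables was called as different in effect. No gene of 16852 was called by this test (0%, with 249 at an unadjusted p under 0.05). Those 249 are fewer than evenly spread p-values would give, so the test was conservative here. The lack of calls does not show that the effects were equal. The intervals of the difference, females minus males, were -0.33 to 0.37 for Shmt2, -0.57 to 0.71 for Mthfd2, -0.44 to 0.77 for Aldh1l2 and -0.53 to 0.85 for Aldh18a1. For Shmt1 the interval was 0.06 to 0.94 (unadjusted p = 0.0273), a smaller fall in females that did not pass the adjustment. For Phgdh it was -0.53 to 0.57, for Psph -0.58 to 0.29 and for Pycr1 -1.19 to 1.2. Mthfd1l and Psat1 were not tested, as each is an Outlier in 1 of the tables.

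Of 19 other genes of folate and 1-carbon metabolism, by the authors' deposited tables, 2 rose and 9 fell of 16 tested at 3 months, 1 rose and 6 fell of 18 in 3-week females, and none rose and 7 fell of 19 in 3-week males. Over all genes tested, 29.8% rose and 27.8% fell at 3 months, 8.29% and 10.4% in 3-week females, and 8.81% and 8.52% in 3-week males. With scaling to total counts, 5 of these folate genes were higher and 6 lower at 3 months, 2 higher and 5 lower in 3-week females, and 2 higher and 4 lower in 3-week males. Their median log2 fold change was -0.64 at 3 months, -0.20 in 3-week females and -0.21 in 3-week males, beside 0.01, 0.01 and -0.01 over all genes tested. The folate receptor gene Folr1, which serves uptake from the tubular fluid, fell in all 3 of the authors' deposited tables (log2 fold changes of -1.79 ± 0.16, SE, at 3 months, -0.68 ± 0.17 in 3-week females and -0.84 ± 0.18 in 3-week males). Slc46a1, the proton-coupled folate transporter, and Fpgs, which adds glutamates that hold folate in cells, also fell in all 3 (the authors' deposited log2 fold changes of Fpgs were -1.44 ± 0.24, -0.75 ± 0.22 and -0.55 ± 0.18 in 3-month males, 3-week females and 3-week males). Atic, which uses formyl-folate in purine synthesis, was called higher at 3 months (0.64 ± 0.09) and in 3-week females (0.35 ± 0.13) in the authors' deposited tables, and had 0.25 ± 0.16 in 3-week males. Slc19a1, the reduced folate carrier, fell at 3 months (-1.50 ± 0.07 in the authors' deposited table) and was not called at 3 weeks.

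Of 22 genes of glycine cleavage, serine and glycine use and mitochondrial serine transport, 1 rose and 7 fell of 8 tested at 3 months, none rose and 3 fell of 15 in 3-week females, and none rose and 7 fell of 17 in 3-week males in the authors' deposited tables. The shares over all tested genes were 29.8% higher and 27.8% lower at 3 months, 8.29% and 10.4% in 3-week females, and 8.81% and 8.52% in 3-week males. With scaling to total counts, 1 gene of the list was higher and 1 lower in 3-week females and 2 were lower in 3-week males. The other 3-month genes included 11 Outliers, all with negative fold changes. Medians of the tested genes were -1.28 at 3 months, -0.28 in 3-week females and -0.50 in 3-week males. Gcsh, the carrier protein of the glycine cleavage system, fell in all 3 tables (-1.04 ± 0.18, -0.47 ± 0.15 and -0.54 ± 0.15 in the authors' deposited tables of 3-month males, 3-week females and 3-week males). Its partners Amt and Dld fell at 3 months (-1.35 ± 0.23 and -1.40 ± 0.20 in the authors' deposited table) and were not called at 3 weeks.

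Of 12 other genes of proline, ornithine and glutamate metabolism, 2 rose and 7 fell of 10 tested at 3 months, and 6 fell with none higher both in 3-week females (of 11) and in 3-week males (of 12), in the authors' deposited tables. Beside these, 29.8% of all tested genes rose and 27.8% fell at 3 months, 8.29% and 10.4% in 3-week females, and 8.81% and 8.52% in 3-week males. With scaling to total counts, 3 genes of the list were lower in 3-week females, and 1 was lower and 1 higher in 3-week males. With the median of genes of like mean subtracted, 2 were lower in 3-week females, and 3 were lower and 1 higher in 3-week males. Medians were -1.04 at 3 months, -0.33 in 3-week females and -0.33 in 3-week males. Prodh2, a mitochondrial hydroxyproline dehydrogenase, fell in all 3 tables (-2.24 ± 0.32, -0.96 ± 0.14 and -0.99 ± 0.20 in the authors' deposited tables of 3-month males, 3-week females and 3-week males), as did Got1 and Got2, the aspartate aminotransferases. Arg2, the mitochondrial arginase that makes ornithine, rose at 3 months by 3.19 ± 0.32 on the log2 scale of the authors' deposited table and was not called at 3 weeks. Glud1, the glutamate dehydrogenase, fell at 3 months (-1.59 ± 0.22 in the authors' deposited table), and was not called in 3-week females (0.37 ± 0.21) or 3-week males (0.28 ± 0.23).

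Of 27 genes made of Atf4 and textbook targets of its product outside the 10 members, 13 rose and 4 fell of 23 tested at 3 months, 4 rose and 1 fell of 26 in 3-week females, and 2 rose and none fell of 22 in 3-week males, in the authors' deposited tables. Among all tested genes, 29.8% rose and 27.8% fell at 3 months, 8.29% and 10.4% in 3-week females, and 8.81% and 8.52% in 3-week males. Medians of the list were 0.60 at 3 months, -0.09 in 3-week females, a sign that turned with scaling to total counts, and 0.09 in 3-week males. Asns, asparagine synthetase, rose in all 3 of the authors' deposited tables (2.42 ± 0.32 at 3 months, 1.07 ± 0.21 in 3-week females and 1.10 ± 0.25 in 3-week males), and was the 1 gene of the list that did so. Nupr1, a stress-induced nuclear protein, and Stc2, a secreted glycoprotein, rose at 3 months by 3.51 ± 0.22 and 2.93 ± 0.23 on the log2 scale of the authors' deposited table and were not called at 3 weeks. Slc7a1, a transporter of cationic amino acids, rose at 3 months (2.73 ± 0.14) and in 3-week males (0.83 ± 0.22), and had 0.43 ± 0.21 in 3-week females, in the authors' deposited tables. Atf4 itself had 0.60 ± 0.09 (SE, adjusted p = 7.23e-10) at 3 months, -0.35 ± 0.12 (adjusted p = 0.0278) in 3-week females and 0.21 ± 0.20 (adjusted p = 0.564) in 3-week males in the authors' deposited tables. Its call in 3-week females was the only lower one of the list there, and was lost at an adjusted p under 0.01, with scaling to total counts and with the median of genes of like mean subtracted (0 lower calls in each).

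**Figure D5:**
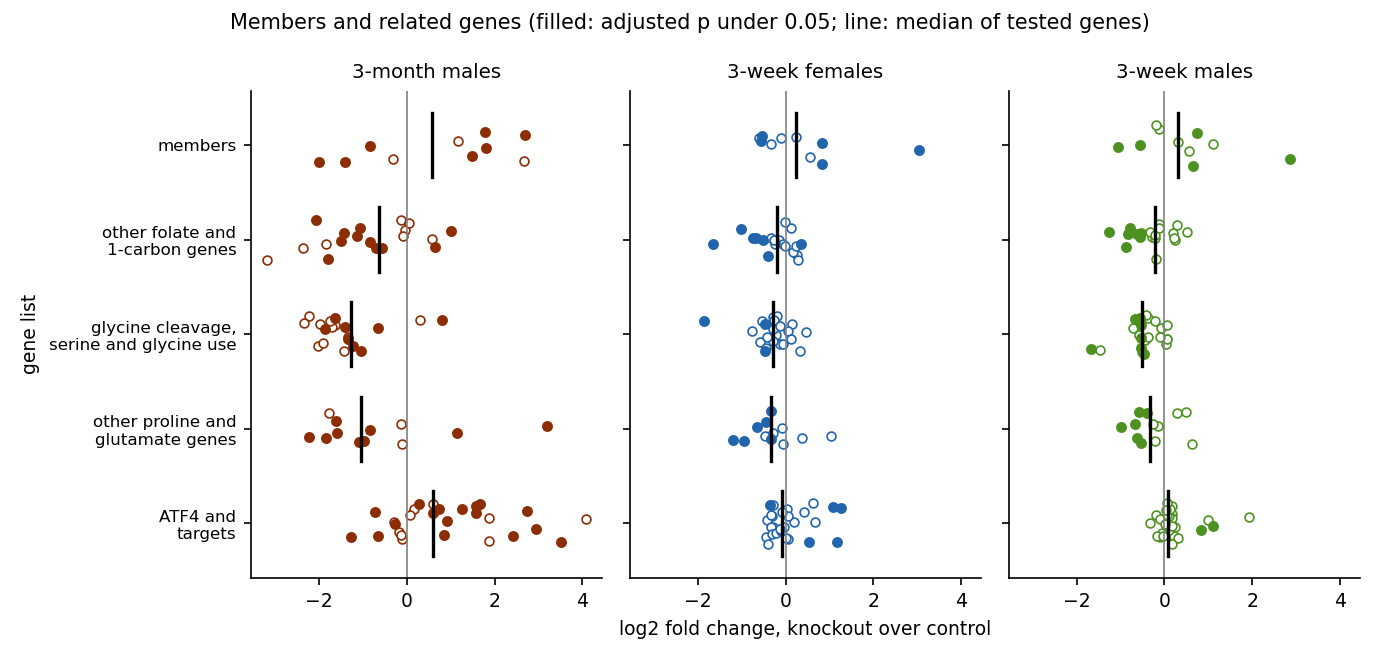
Log2 fold change, knockout over control, of the members and of 4 related gene lists in the authors' deposited tables of 3-month males, 3-week females and 3-week males, filled for adjusted p under 0.05, with lines at the medians of the tested genes. The 3 lists of related folate, glycine and proline genes have negative medians in every panel, and the ATF4 list has a median of 0.60 at 3 months, -0.09 in 3-week females, where scaling to total counts turns the sign, and 0.09 in 3-week males.

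The libraries held abundant RNA of kidney tubules: Kap, the kidney androgen-regulated gene of the proximal tubule, had means of 326660 normalized counts at 3 months, 481795 in 3-week females and 660451 in 3-week males. Markers of kidney cell types moved with the same comparisons. For scale, 29.8% of all tested genes rose and 27.8% fell at 3 months, 8.29% and 10.4% in 3-week females, and 8.81% and 8.52% in 3-week males. Of 15 proximal tubule markers, 4 fell of 4 tested at 3 months, with 11 Outliers that all had negative fold changes, 6 fell of 12 in 3-week females and 9 fell of 14 in 3-week males, and none rose. Their summed derived level, in units of 1e3 normalized counts, was 185 in knockout and 1370 in control kidneys at 3 months, 963 in knockout and 1440 in control 3-week females, and 1320 in knockout and 1960 in control 3-week males. Of 11 immune cell markers, 9 rose of 9 tested at 3 months and 8 of 11 in each 3-week table, and none fell. Their summed level was 26.2 in knockout and 1.97 in control kidneys at 3 months, 11.5 in knockout and 6.72 in control 3-week females, and 19.9 in knockout and 8.42 in control 3-week males. Of 14 markers of dividing cells, 8 rose of 11 tested at 3 months, 5 of 6 in 3-week females and 7 of 14 in 3-week males, and none fell. They summed to 2.56 in knockout and 1.48 in control kidneys at 3 months, 11.3 in knockout and 5.52 in control 3-week females, and 14 in knockout and 8.57 in control 3-week males. The 6 fat cell markers summed to 18.9 in knockout and 0.312 in control kidneys at 3 months, 1.82 in knockout and 1.94 in control 3-week females, and 5.33 in knockout and 5 in control 3-week males. Of these 6, 2 rose of 2 tested at 3 months and none was called at 3 weeks, where 1 was tested in each table. The 8 fibroblast and matrix markers summed to 34.6 in knockout and 4.17 in control kidneys at 3 months, 103 in knockout and 62.2 in control 3-week females, and 176 in knockout and 85.7 in control 3-week males, and 3 rose of 3, 5 rose and 1 fell of 7, and 2 rose of 2 tested in 3-month males, 3-week females and 3-week males. Among markers of other kidney cells, falls were called for 1 of 1, 4 of 5 and 4 of 5 tested genes of the thick ascending limb in 3-month males, 3-week females and 3-week males, for 2 of 2, 3 of 4 and 3 of 5 of the distal convoluted and connecting tubule, and for 3 of 4, 1 of 5 and 3 of 5 of podocytes. In these lists Slc8a1, of the distal convoluted and connecting tubule, was called higher in both 3-week tables (0.65 in females and 0.62 in males), and Synpo, of podocytes, at 3 months (0.32), on the log2 scale of the authors' deposited tables. Endothelial markers fell in 2 of 3, 5 of 5 and 3 of 5 cases, with Cdh5 called higher at 3 months (0.60 in the authors' deposited table), and their summed level at 3 months was 4.16 in knockout and 3.47 in control kidneys. In 3-month males, 3-week females and 3-week males, intercalated cell markers fell in none of 1, 2 of 3 and 3 of 4 cases, while principal cell markers rose in 2 of 3, none of 1 and 2 of 5. The other intercalated cell markers, 5, 3 and 2 in the same order, were Outliers, all with negative fold changes. The other principal cell markers, 3, 5 and 1, were Outliers, all with positive fold changes. No marker of any of these lists had a mean of 0, and the part of these cell types in the changes of the members was not tested.

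Several members share bases with another annotated gene, and the labels do not say whether the counting used the strand. On GRCm38, Mthfd2 (chr6:83305691-83325908, minus strand) shares 2799 bases of its span with the predicted gene Gm43890 on its own strand, where strand cannot tell the 2 apart. Aldh1l2 (chr10:83487450-83534140, minus strand) shares 1056 bases of its span with D10Wsu102e on the other strand, and Psph (chr5:129765558-129787449, minus strand) shares 452 with Cct6a on the other strand. Shmt2 (chr10:127517123-127522444) and Shmt1 (chr11:60788104-60811718), both on the minus strand, share 32 and 184 bases with Ndufa4l2 and Smcr8 on the other strand. Mthfd1l (chr10:3973118-4167081, plus strand), Psat1 (chr19:15904678-15947337, minus strand) and Aldh18a1 (chr19:40550257-40588463, minus strand) overlap processed pseudogenes, and a named pseudogene, Phgdh-ps1, exists for Phgdh (chr3:98313170-98339990, minus strand). Pycr1 (chr11:120635712-120643769, minus strand) had no such overlap.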

How the data were processed

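Groups were taken from the sample titles, and no numbers pair libraries across groups. Per the labels' protocols, polyadenylated kidney RNA of littermates was made into libraries with a TruSeq Stranded mRNA kit. The submitters' processing notes name mm10, STAR, HOMER and DESeq2, without versions. Each table holds 5 values per gene and a status. Per the file headers, the authors computed with DESeq2 a mean of normalized counts per gene, treated here as a signal. Log2 fold changes, their standard errors, p-values and adjusted p-values were also computed by the authors, per the file headers. Means under 10 carry the status Low and no adjusted p, and Outliers carry no p-value, by a rule the headers do not state. Values per library were not used here, beyond the Pycr1 reads, and 27 symbols turned into dates were left out. Their p-values rest on the spread among the libraries used, and it is unknown which labelled ones entered.

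From the deposited values, the 2-sided normal p of each p-value's fold change over its standard error was recomputed and matched in 100% of genes within 1%. Recurring steps of low means gave each library's worth of 1 read, and 98.6% of low means at 3 months, 97.9% in 3-week females and 96.2% in 3-week males were sums of whole reads; Pycr1 had 1 set of whole reads that fitted its mean (tolerance 3e-08). The largest standard errors, 1.10, 0.42 and 0.44 in the same order, point to fold changes moderated towards 0, which was undone for the derived levels. Differences between tables were divided by the root of the summed squared standard errors, with 2-sided normal p-values and Benjamini-Hochberg adjustment over all genes. Simulated data were drawn with normal noise of these same standard errors, and 100 genes were changed by each amount. The test recovered 75% of differences of -2 and 35% of differences of 1 between ages, and 91% and 50% between sexes. That noise is what the test assumes, so these shares do not measure its power on the real data. Mean totals of 18.8, 33.9 and 47.5 in units of 1e6 normalized counts limit the precision of scarce genes. Exon lengths and coordinates are those of GENCODE M21 (GRCm38), and upstream sequences are from RefSeq. Python 3.11.15, pandas 2.3.3, scipy 1.17.1, numpy 2.4.6 and matplotlib 3.10.9 were used.

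The members, gene lists and tests were chosen with earlier results of these data known. Named genes were all members, Esrrg, up to 4 genes of each related list with the smallest p, the most abundant cell markers and the 3 genes nearest to the member with the largest mean change; genes of those lists called in all 3 tables, and Mthfd2l, Aldh1l1, Mthfd1 and Atf4, were added after their values were seen. Some genes taken this way are not reported here. Alternatives were an adjusted p of 0.01, subtraction of the median of all genes or of genes of like mean in 20 bins, total-count scaling, a mean of at least 100, all genes with a fold change and, chosen after seeing the data, undone moderation.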

Additional observations from a re-analysis of the deposited data

Results flagged for a closer look

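Between 3 months and 3 weeks in males, the knockout effect differed for 4 members by the test of the difference itself, given as the log2 fold change at 3 months minus that at 3 weeks. The difference was 2.02 for Aldh18a1, with log2 fold changes in the authors' deposited tables of 2.68 at 3 months and 0.66 at 3 weeks (adjusted p = 2.63e-07). It was 1.92 for Phgdh, with 1.80 at 3 months and -0.13 at 3 weeks (adjusted p = 3.30e-12). For Shmt2 it was -1.44, with -1.99 at 3 months and -0.56 at 3 weeks (adjusted p = 3.87e-05), and for Psat1 it was -1.13, with -0.83 at 3 months and 0.30 at 3 weeks (adjusted p = 0.0105). With scaling to total counts, the difference was 2.34 for Aldh18a1 (adjusted p = 8.91e-10), 2.24 for Phgdh (adjusted p = 1.33e-16) and -1.12 for Shmt2 (adjusted p = 0.00158), and that of Psat1 was no longer called (-0.82, adjusted p = 0.0695).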

How the results depend on the processing

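At an adjusted p under 0.01, members higher in 3-week males numbered 1, other folate genes higher in 3-week females 0, glycine and serine genes lower 1 in 3-week females and 4 in 3-week males, other proline genes lower in 3-week males 2, and ATF4 genes lower in 3-week females 0. With the median of all tested genes subtracted, other folate genes higher in 3-week females numbered 0. With the median of genes of like mean subtracted, members higher in 3-week males numbered 1, glycine and serine genes higher in 3-week females 1, other proline genes lower 2 in 3-week females and 3 in 3-week males and higher in 3-week males 1, and ATF4 genes lower 1 at 3 months and 0 in 3-week females.

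With scaling to total counts, the share of calls that were higher was 84.0% against 51.7% with the authors' size factors at 3 months, 74.0% against 44.2% in 3-week females and 75.2% against 50.8% in 3-week males. Members lower then numbered 1 in each 3-week table. Other folate genes higher numbered 5 at 3 months, 2 in 3-week females and 2 in 3-week males, and lower 4 in 3-week males. Glycine and serine genes higher numbered 1 in 3-week females, and lower 1 in 3-week females and 2 in 3-week males. Other proline genes lower numbered 3 in 3-week females and 1 in 3-week males, and higher 1 in 3-week males. ATF4 genes lower numbered 1 at 3 months and 0 in 3-week females, and higher 4 in 3-week males. The log2 fold changes that changed sign, none of them called, were Psph at 3 months (0.17) and Phgdh in 3-week females (0.042) and 3-week males (0.051).

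With all genes that have a fold change tested, glycine and serine genes lower at 3 months numbered 18, since 11 Outliers entered, other folate genes higher in 3-week females 0 and other proline genes higher in 3-week females 1. Apart from the total-count construction and the entry of Outliers, the causes were not tested. With a mean of at least 100, every count of members and lists stayed within 1.5 times. No paired analysis was possible because the tables hold no values per library and the labels share no replicate numbers between groups. For the same reason leaving out single replicates could not be run. Pycr1, with 2 control reads in all at 3 months, is the member whose value depth limits most.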
